A study of Mus musculus with 14 samples.

Results

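The 9 genes described here make, break down, carry and sense retinoic acid, and were taken by name from the 50686 genes counted in differentiating mouse embryoid bodies (EBs). They are Aldh1a1, Aldh1a2 and Aldh1a3 (synthesis), Cyp26a1 and Cyp26b1 (breakdown), Rara and Rarb (receptors), and Crabp1 and Crabp2 (cellular binding proteins). The deposited table lists 16181 protein-coding genes that passed a filter on low values, and 9 of the 9 genes are among them. EBs are aggregates of embryonic stem cells (ESCs) that differentiate spontaneously into derivatives of the germ layers. The study followed ESCs that stably expressed a short hairpin RNA either against LacZ, a bacterial gene absent from mouse cells (shLacZ, the control), or against Dis3l2 (shDis3l2), an exoribonuclease that degrades uridylated RNA. According to the study's description the parent ESC line carries a GFP reporter of the renal gene Osr1, which both lines share. Undifferentiated cells at d0 were grown with LIF and 2i. EBs, sampled every 2 days from d2 up to d12, were formed by hanging drops without LIF and 2i in medium with serum, and no addition of retinoic acid is stated for them. Polyadenylated RNA was sequenced from 1 library per line and day, 14 in all, so each line is 1 series of cultures.

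Retinoic acid is a small lipid made from vitamin A in 2 oxidation steps, the last of which is carried out by the retinaldehyde dehydrogenases of the Aldh1a family. Enzymes of the Cyp26 family oxidise retinoic acid to inactive products, and cells that express them shield themselves and their neighbours from it. Inside the nucleus retinoic acid binds the receptors RARα, RARβ and RARγ (genes Rara, Rarb and Rarg), which pair with retinoid X receptors on DNA. In the embryo Aldh1a2 is the main source of retinoic acid in the mesoderm, Cyp26a1 marks the early gastrulating embryo and the tail bud, and both Rarb and Cyp26a1 are textbook targets that retinoic acid itself switches on.

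The classic element through which RAR acts is a direct repeat of a 6-base site with 5 bases between the copies (DR5). The 300 bases around each RefSeq start site (250 before to 50 after, GRCm38) were searched on both strands. A site was AGGTCA or its close variant AGTTCA, and GGGTCA likewise with its variant GGTTCA was accepted. Any of these 4 sites had to be followed by any 5 bases and by any of the 4 again. This repeat was present in 32 of 32851 promoter windows (0.0974%) and in 31 of 27025 genes (0.115%). Of the 9 genes, 7 had a window in the table, and 2 of these 7, Rarb and Cyp26a1, held a DR5. Aldh1a3 and Crabp2 had no entry. The 100 bases before the start site of Rarb and Cyp26a1 are shown because only these 2 of the 7 genes held a DR5. The DR5 is in capitals, and each sequence is read 5′ to 3′ on the strand of its gene.
Rarb, chr14:16575477-16575576, minus strand: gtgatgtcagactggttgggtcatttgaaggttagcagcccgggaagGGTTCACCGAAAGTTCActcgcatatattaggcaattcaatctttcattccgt
Cyp26a1, chr19:37697708-37697807, plus strand: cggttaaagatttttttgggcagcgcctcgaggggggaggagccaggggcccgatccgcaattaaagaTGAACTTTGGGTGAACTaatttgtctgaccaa
The Rarb element lies at positions -53 to -37 from the start site and reads on the strand of the gene. The Cyp26a1 element lies at positions -32 to -16 and reads on the opposite strand, where its letters are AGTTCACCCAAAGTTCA. The same sites with 2 bases between them (DR2) were found in 0.268% of windows and in none of the 7 genes, so the elements shown overlap no DR2. Among 41 other retinoid genes with a window, listed further on, none held either repeat. These matches describe letters in the reference sequence and not binding.

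Libraries held between 7178712 and 39888099 reads on genes, and within a day the larger library was up to 2.88 times the smaller (d4). Levels are given as CPM, the reads of a gene per 1000000 reads on all genes of the library. A count of 3 reads, taken as the floor, equals 0.0752 CPM in the deepest and 0.418 CPM in the shallowest library. Intervals in brackets are 95% Clopper-Pearson intervals of a ratio of reads and cover counting error only, since there is no replicate of any line and day. Dis3l2 itself was at 13.7%, 28.1%, 32.1% and 55.2% of the control on d0, d2, d4 and d6, and at 97.1% [83.7%, 113%] on d8, 94.98% [78.8%, 115%] on d10 and 75.4% on d12. The knockdown was thus not detectable at the level of total Dis3l2 reads in the libraries labelled shDis3l2 of d8 and d10, the days on which several of the 9 genes differed most. At d0 the median log2 fold over all protein-coding genes compared was -0.32, against -0.07 to 0.05 on the later days, so differences at d0 are also given after scaling that removes such a shift.

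**Figure D1:**
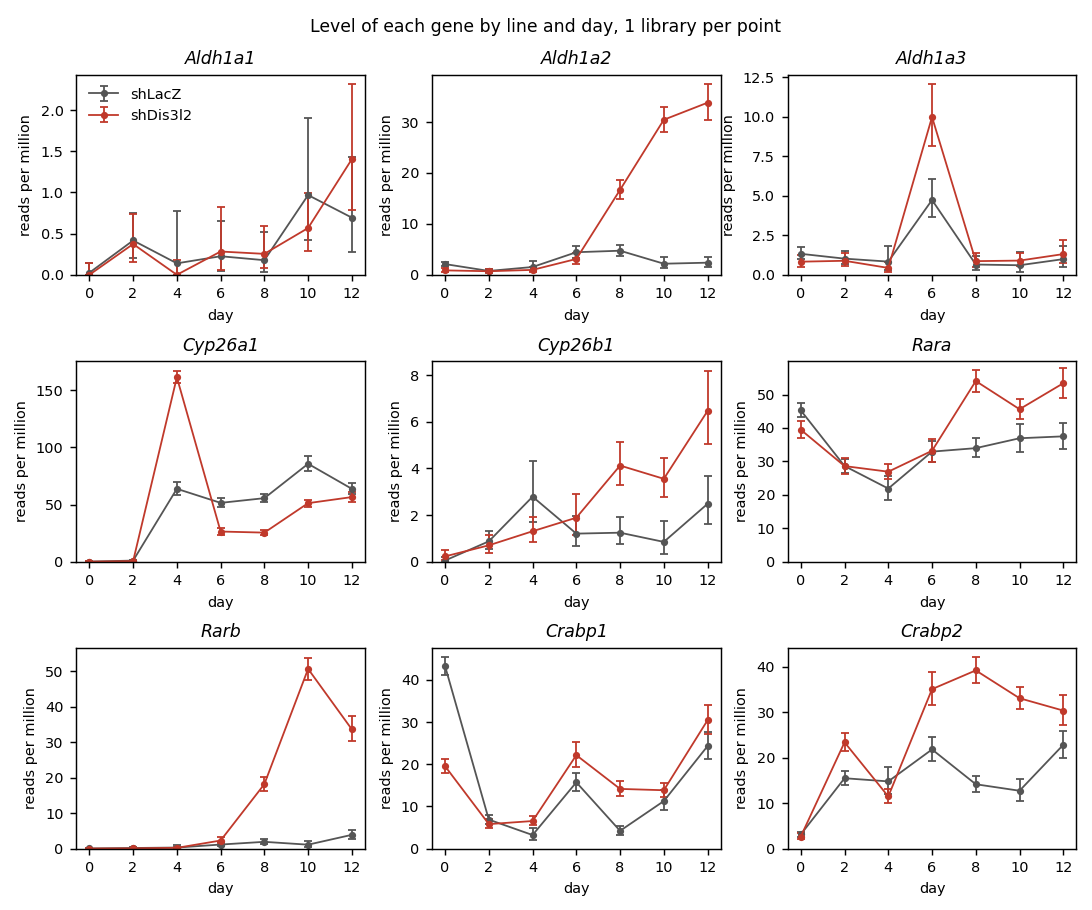
Level of each of the 9 genes in CPM (vertical axis, from 0) against day (horizontal axis) in shLacZ (grey) and shDis3l2 (red), with 1 library per point and bars for the 95% Poisson interval of the count. Aldh1a2 and Rarb stayed at most at 4.73 and 3.87 CPM in shLacZ and reached 33.8 and 50.7 CPM in shDis3l2, and Cyp26a1 peaked at 161 CPM in shDis3l2 at d4.

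Among the synthesis genes, Aldh1a2, which encodes the retinaldehyde dehydrogenase of embryonic mesoderm (chr9:71215789-71296243, plus strand, GRCm38), reached a level in shDis3l2 EBs that was 14.2 times that of shLacZ EBs at d12. In shLacZ its level from d0 to d12 ran through 2.11, 0.758, 1.53, 4.43, 4.73, 2.18 and 2.38 CPM. In shDis3l2 the same days gave 0.869, 0.701, 0.966, 3.11, 16.7, 30.5 and 33.8 CPM. The lines overlapped up to d6, and from d8 onward every shDis3l2 library was above every shLacZ library. How many of all genes were separated in this way was not counted, here or for the genes below. The ratio between the lines, 0.701 [0.444, 1.09] at d6, was 3.53 [2.75, 4.56] on d8, 13.98 [8.77, 23.7] on d10 and 14.2 [9.39, 22.5] on d12. The 8 libraries of d6 to d12 were tested with edgeR (quasi-likelihood F test, blocked by day). This test gives no standard error, so each standard error (SE) is the absolute log2 fold change divided by the square root of F. Aldh1a2 had a log2 fold change of 2.24 (SE 0.68) and an edgeR adjusted p of 0.0376 (Benjamini-Hochberg over 16016 genes). This call was lost without d8, d10 or d12, where the adjusted p was 0.116, 0.153 and 0.0973, and the log2 fold change then lay between 1.71 and 2.45. At d0, before differentiation, Aldh1a2 was lower in shDis3l2, with a log2 fold of -1.28, or -1.003 after TMM scaling, which corrects for the composition of the libraries.

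Aldh1a3, the isozyme best known from the eye and nasal region (chr7:66390890-66427517, minus strand), was a transient gene of d6 in both lines. Its level at d6 was 4.74 CPM in shLacZ and 9.99 CPM in shDis3l2, whereas the other 12 libraries lay between 0.435 and 1.33 CPM. From d4 to d6 the ratio was 5.67 [2.46, 16.0] in shLacZ and 23.0 [11.7, 51.6] in shDis3l2, and from d6 to d8 it was 0.137 [0.0653, 0.263] and 0.0866 [0.0486, 0.145]. The d6 peak was 2.11 times [1.53, 2.93] as high in shDis3l2, and on the other days the interval of the ratio between the lines included 1. Over d6 to d12 the log2 fold change of Aldh1a3 was 0.70 (SE 0.25, adjusted p of 0.0658 in the edgeR test), which missed the threshold.

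Aldh1a1, the isozyme of the adult liver and eye (chr19:20601961-20643462, plus strand), was near the limit of detection throughout. It had 0 to 15 reads per library, 77 in all, and its highest level was 1.40 CPM in shDis3l2 at d12. The filter of the edgeR test removed it, and no difference between the lines was detectable at this depth. Reads of 2 overlapping transcripts on the opposite strand (C730002L08Rik and Gm6684) cannot be told apart from its own with certainty, since the strand setting of the counting is not stated. Whether reads of its close copy Aldh1a7 were counted for it was not tested.

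Summed per kilobase of exon, a scale on which genes of different length can be compared, the Aldh1a family stood at 2.32, 1.57 and 1.604 CPM per kb in shLacZ at d8, d10 and d12, and at 7.68, 13.9 and 15.9 CPM per kb in shDis3l2. Aldh1a2 made up 95.9%, 96.6% and 93.9% of this sum in the shDis3l2 libraries. At d6, by contrast, Aldh1a3 accounted for 58.9% of the sum in shDis3l2 and 33.1% in shLacZ.

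Of the breakdown genes, Cyp26a1 (chr19:37697808-37701528, plus strand) was by far the higher, and its difference between the lines turned over between d4 and d6. In shLacZ it was at 0.0501 CPM at d0 and 0.948 at d2, then at 63.8, 51.5, 55.6, 85.7 and 63.8 CPM from d4 to d12. In shDis3l2 it was at 0.0378 CPM at d0 and 0.467 at d2, reached 161 CPM at d4, and was at 26.4, 25.4, 51.2 and 56.6 CPM from d6 to d12. Both lines thus took up Cyp26a1 between d2 and d4, with a ratio of d4 to d2 of 67.3 [45.0, 105] in shLacZ and 345 [188, 721] in shDis3l2. At d4 the shDis3l2 library was 2.53 times [2.29, 2.80] as high as the control. From d6 the order was reversed, with ratios of 0.513 [0.444, 0.590], 0.457 [0.410, 0.510], 0.598 [0.543, 0.658] and 0.887 [0.792, 0.993] from d6 to d12. Over d6 to d12 Cyp26a1 was lower in shDis3l2, with a log2 fold change of -0.75 (SE 0.15, edgeR adjusted p of 0.00886), and the call held without each of the 4 days in turn. In shDis3l2 the level at d6 was 0.163 times [0.144, 0.185] that at d4, against 0.807 [0.716, 0.910] in shLacZ.

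Cyp26b1 (chr6:84571414-84593908, minus strand), the family member known from hindbrain, limb and gonad, moved the other way at a low level. In shLacZ it lay between 0.847 and 2.48 CPM from d6 to d12, and in shDis3l2 it was 1.88, 4.12, 3.55 and 6.46 CPM on these days. The lines overlapped at d6 and did not overlap from d8. The ratio was 3.32 [2.03, 5.65] on d8, 4.19 [1.94, 10.8] on d10 and 2.61 [1.63, 4.30] on d12, from 7 to 25 reads in shLacZ and 69 to 81 in shDis3l2. Cyp26b1 was higher over d6 to d12 by 1.44 on the log2 scale (SE 0.27, edgeR adjusted p of 0.00702). At d4, the one earlier day with a difference beyond counting error, it was lower in shDis3l2, at 1.30 against 2.79 CPM (ratio 0.468 [0.253, 0.881], with 20 reads in the shallow shLacZ library).

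On the per-kilobase scale Cyp26b1 added little to the pair. Cyp26a1 held 94.9% to 99.7% of the sum of the pair in the 10 libraries from d4 on, and the sum was 36.5 CPM per kb in shLacZ and 91.3 in shDis3l2 at d4, then 29.3 against 15.2, 31.6 against 15.1, 48.5 against 29.6 and 36.4 against 33.1 on the 4 later days. From d8 to d12 the shDis3l2 libraries combined more message of the synthesis gene Aldh1a2 with less message of the main breakdown gene Cyp26a1. At d12 Cyp26a1 was only slightly lower (ratio 0.887 [0.792, 0.993]). Rdh10, a gene of retinol and retinal oxidation listed further on, was lower too, at ratios of 0.625, 0.755 and 0.843 on d8, d10 and d12. Enzyme amounts, activities and retinoic acid itself were not measured.

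**Figure D2:**
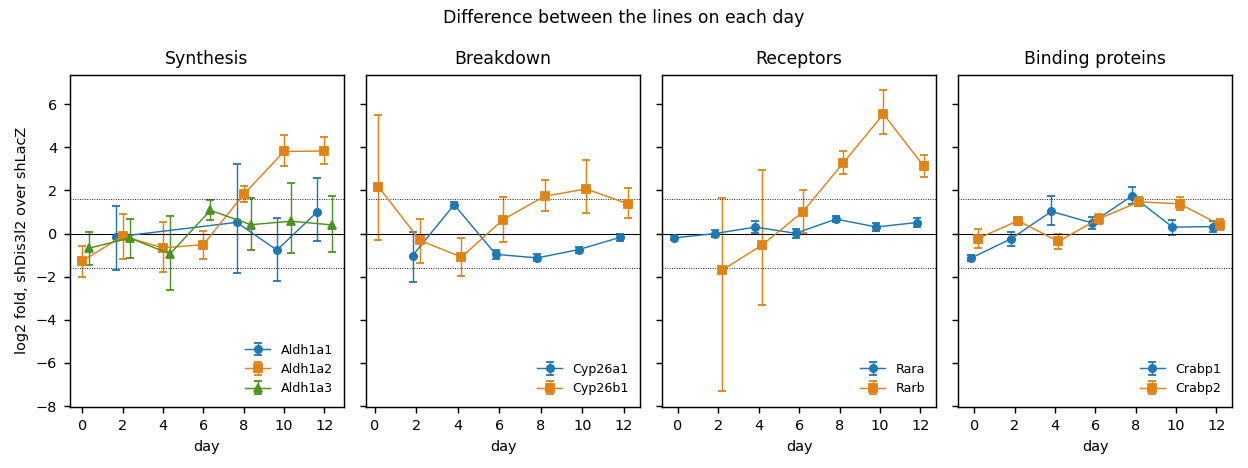
Log2 fold of shDis3l2 over shLacZ (vertical axis) on each day (horizontal axis, genes slightly offset) by role, with bars for the 95% interval of the ratio of reads and dotted lines at 3-fold. Points with at most 3 reads in both libraries are left out. Rarb reached 5.54 and Aldh1a2 3.83, whereas Cyp26a1 changed from 1.34 at d4 to -1.13 at d8.

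The receptor gene with the largest difference of the 9 genes was Rarb (chr14:16430842-16575472, minus strand). In shLacZ it had 1 to 4 reads at d0, d2 and d4, and the following 4 days gave 1.13, 1.89, 1.09 and 3.87 CPM. In shDis3l2 it had 0 to 4 reads up to d4, and then 2.26, 18.2, 50.7 and 33.6 CPM. Every shDis3l2 library from d8 on was far above every control library, and the shDis3l2 library of d6 was within the range of the late controls. The ratio was 2.01 [1.01, 4.11] on d6, 9.59 [6.67, 14.2] on d8, 46.5 [24.4, 102] on d10 and 8.69 [6.24, 12.4] on d12. Rarb was the only member called over all 7 days, with a log2 fold change of 2.73 (SE 0.69, edgeR adjusted p of 0.0469). That call was lost without d6, d8, d10 or d12, where the adjusted p was between 0.0790 and 0.179. Of all genes tested, 16 were called without d6 and 0 without d8, d10 or d12, against 1103 with all 7 days. Over d6 to d12 the log2 fold change of Rarb was 3.36 (SE 0.54, edgeR adjusted p of 0.00390) and passed without each of the 4 days in turn.

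Rarb overlaps Top2b, a DNA topoisomerase gene on the opposite strand, and the antisense transcript Gm48162. Reads of such partners cannot be separated where strand is not used. Top2b was 1.80, 2.14 and 1.65 times as high in shDis3l2 at d8, d10 and d12, and at d4, where Top2b was at 160 and 180 CPM in the 2 lines, Rarb had 2 and 4 reads. Whether reads of Top2b or Gm48162 add to the Rarb counts from d8 on was not tested. Aldh1a2 overlaps the processed pseudogene Gm48124 on the opposite strand, and Rara overlaps the small nuclear RNA gene Gm22061 on the same strand. Whether these add to the counts of Aldh1a2 or Rara was not tested either.

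Rara (chr11:98927818-98974942, plus strand), the broadly expressed receptor, was present in all 14 libraries between 21.9 and 54.0 CPM. Its level in shLacZ was 45.3 CPM at d0 and 32.9, 34.0, 36.9 and 37.5 CPM on the days from d6 on. In shDis3l2 it was 39.5 CPM at d0 and 33.2, 54.0, 45.6 and 53.4 CPM later. From d8 the shDis3l2 libraries were above all shLacZ libraries of d8 to d12, with ratios of 1.59 [1.44, 1.76], 1.24 [1.08, 1.41] and 1.42 [1.25, 1.63]. Over d6 to d12 the log2 fold change was 0.38 (SE 0.12, edgeR adjusted p of 0.0405), and without d8, d10 or d12 the adjusted p was 0.172, 0.123 and 0.101.

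With Rarg, the remaining receptor of the family, the composition of the receptor message can be followed per kilobase. At d2 Rarg made up 82.2% of the sum in shLacZ and 82.0% in shDis3l2, and Rarb 0.135% and 0.0422%. In shLacZ Rarg was still 78.2% at d4 and 65.6% at d6, and from d8 Rara and Rarg were within 4 percentage points of each other while Rarb was 3.85%, 2.03% and 6.68% of the sum at d8, d10 and d12. In shDis3l2 Rarb was 21.1%, 45.8% and 32.8%, and at d10 it was the most abundant of the 3 per kilobase, with 16.7 CPM per kb against 10.4 for Rara and 9.29 for Rarg. The summed level of the family at d10 was 17.7 CPM per kb in shLacZ and 36.4 in shDis3l2. Rarg itself did not pass the test over d6 to d12 (log2 fold change 0.24, SE 0.08, edgeR adjusted p of 0.0530).

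**Figure D3:**
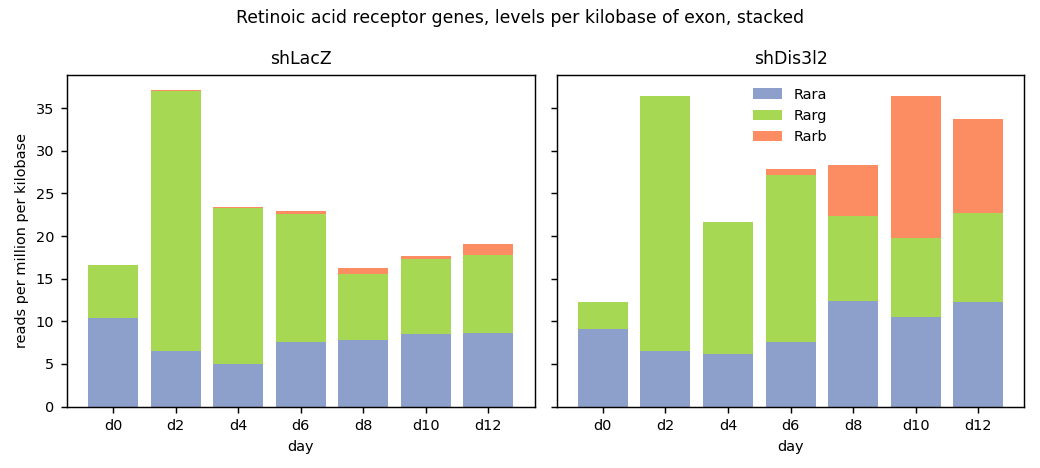
Level of Rara, Rarg and Rarb per kilobase of exon (vertical axis, CPM per kb, stacked from 0) in each library by day (horizontal axis), shLacZ left and shDis3l2 right. Rarb took 45.8% of the stack in shDis3l2 at d10 and 2.03% in shLacZ.

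Both binding protein genes were higher in shDis3l2 EBs at d6 and d8. Crabp2, which delivers retinoic acid to the receptors (chr3:87948666-87953376, plus strand), was at 21.8, 14.1, 12.7 and 22.8 CPM from d6 to d12 in shLacZ and at 35.1, 39.2, 33.1 and 30.3 CPM in shDis3l2. It was the one gene of the 9 whose lines did not overlap over these 4 days. Without the share of all genes that also did not overlap, this does not set Crabp2 apart from other genes. The 4 ratios were 1.61 [1.38, 1.88], 2.77 [2.39, 3.22], 2.60 [2.12, 3.22] and 1.33 [1.12, 1.58], and the log2 fold change was 0.98 (SE 0.20, edgeR adjusted p of 0.00902). Both lines took up Crabp2 on leaving 2i, from 3.11 to 15.5 CPM between d0 and d2 in shLacZ and from 2.64 to 23.4 CPM in shDis3l2.

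Crabp1 (chr9:54764748-54773110, plus strand), the relative associated with storage and breakdown of retinoic acid, was highest in undifferentiated shLacZ cells. It was at 43.2 CPM in shLacZ and 19.5 in shDis3l2 at d0, and at 6.86 and 5.79 CPM at d2, which are ratios of d2 to d0 of 0.159 [0.135, 0.185] and 0.297 [0.242, 0.362]. Per kilobase, Crabp1 was 95.8% and 92.4% of the pair at d0 and 42.2% and 29.0% at d2. The share of Crabp1 was lower at d2 than at d0 in both lines, but was 54.3% and 51.0% at d6 and 63.7% and 62.3% at d12. The difference at d0 was -1.15 on the log2 scale, -0.87 after TMM scaling and -0.76 with DESeq2 size factors. From d4 on Crabp1 was higher in shDis3l2, with 4.20 against 14.1 CPM at d8 (ratio 3.37 [2.59, 4.43]) and 24.3 against 30.4 CPM at d12 (ratio 1.25 [1.06, 1.48]), and the interval included 1 at d10 (ratio 1.23 [0.970, 1.57]). Over d6 to d12 its log2 fold change was 0.68 (SE 0.25, edgeR adjusted p of 0.0650), and among the settings tried it passed only with DESeq2 and without the filter on low counts.

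Counted over the 9 genes, differences of at least 3-fold between the lines appeared from d8 and were all in the direction of shDis3l2. Genes that reached 1 CPM in either library of a day were compared. These were 5, 4 and 6 of the 9 at d0, d2 and d4, and none of them was 3-fold changed, where 2.96%, 0.258% and 2.05% of all protein-coding genes compared were. At d6 none of 8 was changed, against 2.73% of genes higher and 4.27% lower. At d8 there were 4 of 7 higher (Aldh1a2, Cyp26b1, Rarb and Crabp1), where 5.50% of all genes were higher and 3.77% lower. At d10 there were 3 of 7 (Aldh1a2, Cyp26b1 and Rarb), with 8.62% higher and 3.17% lower among all genes, and at d12 there were 2 of 9 (Aldh1a2 and Rarb), with 8.17% and 1.42%. The median log2 fold of the members compared on these 3 days was 1.73, 1.38 and 0.51, and that of all genes was 0.03, 0.01 and 0.05. No member was 3-fold lower on any day.

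In the edgeR tests 8 of the 9 genes were tested. Over the 7 days 1 was called, Rarb, where 6.59% of the 16739 genes tested were. Over d6 to d12, 5 were called higher (Rarb, Aldh1a2, Cyp26b1, Crabp2 and Rara) and 1 lower (Cyp26a1), where 38.8% of 16016 genes were called. These tests take the days of a series as if they were replicates, which they are not, and say only how steady a difference was over days. Without d8 and d10, the days with no detectable knockdown (an alternative chosen after the values were seen), none of the 8 and none of 15950 genes was called by edgeR (3149 genes had an unadjusted p under 0.05), although the 6 genes kept their direction, with a log2 fold change of 2.27 for Rarb and -0.58 for Cyp26a1.

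Within each line, the genes can also be read along differentiation. Between d0 and d12, 4 of 8 genes compared were at least 3-fold higher in shLacZ (Cyp26a1, Cyp26b1, Rarb and Crabp2), and 6 of 9 in shDis3l2 (the same 4 with Aldh1a1 and Aldh1a2). None was 3-fold lower in either line. Changes of this size were common, since 43.7% of all genes compared in shLacZ and 53.4% in shDis3l2 passed the same limit in either direction, and the median log2 fold of all genes was 0.64 and 1.16. Aldh1a1 had 0 and 15 reads at d0 and d12 in shDis3l2. In shLacZ it had 1 and 7 reads (ratio 27.7 [3.56, 1248]) and was not compared, since its 0.694 CPM at d12 was below 1 CPM. Aldh1a2 was 1.13 times [0.686, 1.80] its d0 level at d12 in shLacZ, and 38.9 times [25.5, 62.2] in shDis3l2. Rarb, with no read at d0 in shDis3l2, was at least 297 times above the floor of 3 reads at d12, and in shLacZ its ratio of d12 to d0 was 154 [26.1, 6248] on 1 read at d0. In both lines Crabp2 was above 15 CPM at d2, Cyp26a1 went from under 1 CPM at d2 to over 60 CPM at d4, and Aldh1a3 was highest at d6, whereas Rarb passed 15 CPM only in shDis3l2, from d8.

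The courses of the genes over the 14 libraries were compared on log2(CPM + 1). Pearson's r was 0.96 between Aldh1a2 and Rarb, 0.83 between Cyp26b1 and Rarb, 0.78 between Cyp26b1 and Crabp2, 0.77 between Aldh1a2 and Cyp26b1, and 0.73 for Rara with both Aldh1a2 and Crabp1, and these were the highest of the 36 pairs. By contrast, r of Aldh1a3 with Rarb was 0.02 and of Cyp26a1 with Crabp1 -0.20. These libraries come from 2 series that share their days, so the values only describe how alike the courses were. Among 12854 protein-coding genes, the courses most like that of Rarb were those of Gucy1a3 (r of 0.99), a subunit of soluble guanylate cyclase, Sncaip (0.98) and the protocadherin Pcdhb20 (0.98). Those most like Aldh1a2 were Kcnb2, a potassium channel, Fkbp7, a peptidyl-prolyl isomerase, and Sparcl1, a matrix protein, all at 0.97. Cyp26a1 was most like Rreb1 (0.98), Rora (0.97) and Zhx2 (0.97), all transcription factors, and Aldh1a3 most like the homeobox genes Hoxb6 (0.88) and Hoxd1 (0.86) and the prostaglandin receptor gene Ptgfr (0.85). Cyp26b1 was nearest to Shd, Slc12a5 and Nsg1 (0.95, 0.94 and 0.93), Crabp2 to Brms1l, Gm3115 and Fbxo32 (0.97 each), Rara to Pccb, Tsc22d4 and Polr3gl (0.94, 0.94 and 0.93), and Crabp1 to Atf5, AI846148 and Gpatch11 (0.88, 0.85 and 0.85).

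Other genes of vitamin A handling and response, 57 in 6 lists, were set beside these 9. In the list of 24 genes known to respond to retinoic acid, 5 of 19 tested over d6 to d12 were higher in shDis3l2 by edgeR, 4 were lower and 10 did not pass, beside the 38.8% called among all genes. By the 3-fold rule 0 of 19 compared were higher and 2 lower at d6, 4 of 20 higher and 2 lower at d8, 8 of 21 higher and 1 lower at d10, and 6 of 21 higher and 0 lower at d12, beside 2.73%, 5.50%, 8.62% and 8.17% higher and 4.27%, 3.77%, 3.17% and 1.42% lower among all genes. Those higher included Nr2f1 and Nr2f2, orphan nuclear receptors (COUP-TFs) of mesenchyme and neural tissue, with log2 fold changes of 2.69 (SE 0.33) and 1.52 (SE 0.21), and Zfp503, a zinc finger repressor, with 1.82 (SE 0.37). Their edgeR adjusted p was 0.00171, 0.00239 and 0.00925. Nr2f1 was at 2.01, 1.94 and 6.25 CPM in shLacZ at d8, d10 and d12 and at 14.8, 26.4 and 28.0 CPM in shDis3l2. Stra8, a gene of meiotic entry named for its response to retinoic acid, had 0 to 4 reads in the 4 late shLacZ libraries and was at 1.07, 9.52 and 8.71 CPM in shDis3l2 at d8, d10 and d12, a ratio of 39.3 [10.7, 327] at d10, and the filter kept it out of the test. It was, however, already 2.74 times [2.05, 3.70] as high in shDis3l2 at d0. Among those lower was Fgf8, a growth factor of the gastrulating embryo, with a log2 fold change of -3.09 (SE 0.57, edgeR adjusted p of 0.00657) at no more than 4.96 CPM in these libraries, followed by the homeobox gene Gbx2 (-1.24, SE 0.34, edgeR adjusted p of 0.0272) and Rarres1 (-1.10, SE 0.27, edgeR adjusted p of 0.0195).

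In the list of vitamin A uptake and storage, 1 of 6 tested was higher and 3 were lower. For this and the following lists, the background over d6 to d12 was 3149 genes higher and 3068 lower of 16016 tested (38.8% called). The gene higher was Lpl, lipoprotein lipase (log2 fold change 1.47, SE 0.32, edgeR adjusted p of 0.0117). Those lower included Bco1, which cleaves β-carotene to retinal, with a log2 fold change of -1.94 (SE 0.14, edgeR adjusted p of 0.000411). Rbp4 (-1.28, SE 0.20, edgeR adjusted p of 0.00376) and Stra6 (-0.71, SE 0.17, edgeR adjusted p of 0.0153) were lower as well. Bco1 was at 3.46, 20.4, 32.4 and 23.6 CPM in shLacZ from d6 to d12 and at 1.04, 5.14, 9.19 and 5.43 CPM in shDis3l2, at least 3-fold lower on each of the 4 days. Of 6 genes of retinol and retinal oxidation and reduction tested, 1 was higher and 3 were lower. Those lower included Rdh10 (log2 fold change -0.63, SE 0.15, edgeR adjusted p of 0.0162). None of 6 compared was 3-fold changed at d6, d8 or d10. At d12, 2 of 8 were at least 3-fold higher (Dhrs9 and Aldh1a7), where 8.17% of all genes were. Of the remaining receptors Rxra was higher and Rarg and Rxrb did not pass. Rxrg was kept out of the test by the filter, and was at 0.828 and 3.03 CPM in shLacZ against 0.204 and 0.189 CPM in shDis3l2 at d8 and d10, ratios of 0.246 [0.0589, 0.782] and 0.0626 [0.0158, 0.181]. The carrier Fabp5 was higher (log2 fold change 0.91, SE 0.10, edgeR adjusted p of 0.00111), and of 10 receptor corepressors and coactivators 1 was called, lower (Ncoa3, log2 fold change -0.52, SE 0.10, edgeR adjusted p of 0.00693). Rxra, Rxrb, Rxrg, Ncoa3, Fabp5, Fgf8, Gbx2, Rarres1, Dhrs9, Aldh1a7, Rdh10, Rbp4 and Stra6 were named after their values were seen, as was Rarg to complete the receptor family.

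**Figure D4:**
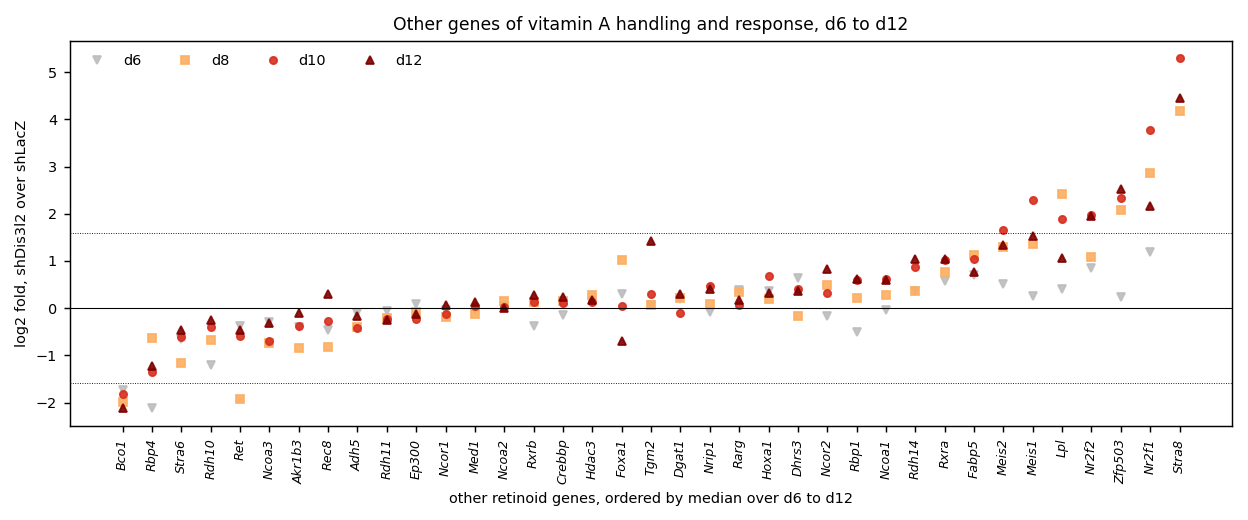
Log2 fold of shDis3l2 over shLacZ (vertical axis) at d6, d8, d10 and d12 (symbols) for the other retinoid genes that reached 5 CPM in a library of d6 to d12, ordered along the horizontal axis by their median, with dotted lines at 3-fold. Stra8, Nr2f1 and Zfp503 stand at the high end and Bco1 at the low end.

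EBs are mixtures of cell types, and in bulk RNA more cells of a type and more RNA per cell cannot be told apart, so the levels of cell type markers belong beside the values above. Mesenchyme markers such as Pdgfra and Col1a1, at a summed level of 403 to 1894 CPM in the shLacZ libraries of d6 to d12, were at 1239 to 16491 CPM in shDis3l2, and 8 of 10 were called higher by edgeR. Visceral endoderm markers such as Afp and Ttr went the other way, with 2948 to 6715 against 585 to 1876 CPM and 11 of 12 called lower, and pluripotency markers were at 415 to 584 against 62.4 to 381 CPM with 6 of 8 lower. Of the other lists, cardiomyocyte markers stood at 27.2 to 74.0 against 44.1 to 198 CPM (6 of 8 tested higher) and blood markers at 11.9 to 862 against 55.8 to 1419 CPM (3 of 6 higher). Endothelial markers were at 105 to 249 against 210 to 434 CPM (2 of 8 higher). Mesothelium and epicardium markers were at 1020 to 1238 against 529 to 1042 CPM (3 of 9 higher and 2 lower) and neural markers at 72.4 to 151 against 88.8 to 200 CPM (1 of 7 higher and 4 lower). Beside these counts, 38.8% of all 16016 genes tested were called, 3149 higher and 3068 lower. Counts near that share, such as those of the endothelial list, say little about the markers. No gene of these 8 lists was at 0 reads in all late libraries of a line. The summed mesenchyme level went from 1239 CPM at d6 to 15643 at d10 in shDis3l2, the interval over which Aldh1a2 went from 3.11 to 30.5 CPM and Rarb from 2.26 to 50.7 CPM. At d12 this sum was 16491 CPM, Aldh1a2 was at 33.8 CPM and Rarb was lower, at 33.6 CPM. In shLacZ the sum went from 403 CPM at d6 to 1832 at d8, with Aldh1a2 at 4.43 and 4.73 CPM and Rarb at 1.13 and 1.89 CPM. The part of cell composition in the differences of the 9 genes was not tested.

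**Figure D5:**
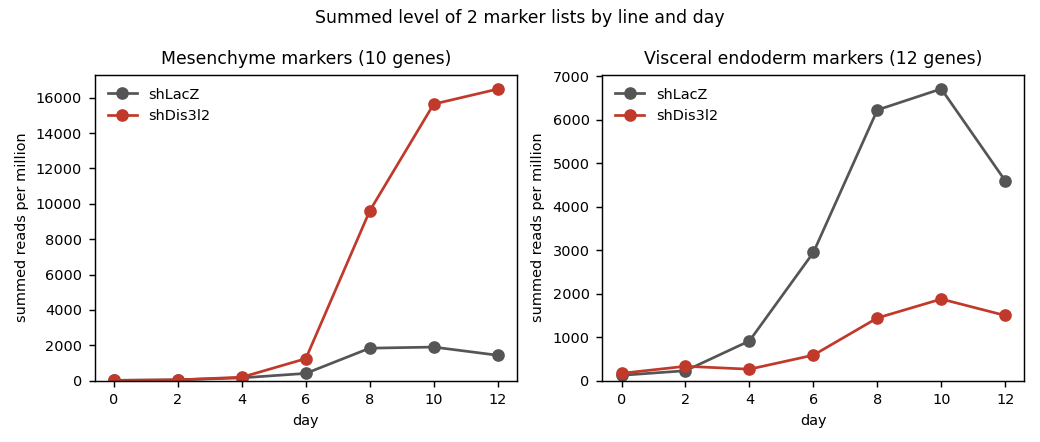
Summed level of 10 mesenchyme markers (left) and 12 visceral endoderm markers (right) in CPM (vertical axes, from 0) against day (horizontal axes) in shLacZ (grey) and shDis3l2 (red), 1 library per point. Mesenchyme markers reached 16491 CPM in shDis3l2 at d12 and 1432 in shLacZ.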

How the data were processed

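PolyA RNA of 14 libraries, 1 per line and day, was analysed. The authors aligned reads to GRCm38 with Subread and deposited featureCounts counts per gene, without normalisation. They also deposited CPM of protein-coding genes that passed a filter, which equalled (count + 0.25) over the listed genes. Columns of the knockdown line carry another hairpin name (shm5) and were matched to shDis3l2 by time point. CPM here were computed from the counts over all genes. Changes on a day needed a fold of at least 3 and 1 CPM in 1 of the 2 libraries. Between the lines, edgeR 4.0.16 in R 4.3.3 was used (quasi-likelihood F test, TMM, filterByExpr, day as a block, Benjamini-Hochberg adjusted p under 0.05), and the scripts were tested on simulated data. DESeq2 1.42.0, other scalings, no filter, other limits and leaving out days were the alternatives. Promoter sequences came from RefSeq (GRCm38.p6), and overlapping genes from GENCODE M21. Besides the 9 genes, the genes named were those of the retinoid lists at least 3-fold changed on 2 of d6 to d12 with 5 CPM in 1 library, and for each member reaching 5 CPM the 3 genes with the highest Pearson r. The members, lists and tests were chosen with earlier results of these data known. Reads carried no molecular identifiers, so PCR copies are counted and intervals reflect counting error alone. Between 7178712 and 39888099 reads were counted per library. A gene of the list of responsive genes is not reported here and was left out of its counts.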

Additional observations from a re-analysis of the deposited data

Results flagged for a closer look

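For 4 of the 9 genes the ratio of shDis3l2 to shLacZ lay above 1 on some day and below 1 on another beyond counting error under each of 3 scalings (library totals, TMM and DESeq2 size factors). How many of all genes did so was not counted, so this does not set the 4 genes apart from other genes. Cyp26a1 was at a ratio of 2.53 at d4 and 0.457 at d8. Aldh1a2 was at 0.412 at d0 and 14.2 at d12. Cyp26b1 was at 0.468 at d4 and 4.19 at d10, and Crabp1 at 0.452 at d0 and 3.37 at d8. The difference between the days was not tested, since there is 1 library per line and day. No group has the 4 samples that a search for single aberrant samples needs.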

How the results depend on the processing

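The count of members called over d6 to d12 was 6, stayed at 6 or 7 with DESeq2, without TMM, with DESeq2 size factors and without the filter, and ranged from 4 to 6 when each day was left out. The count of all genes called was 6217 with the 4 days and ranged from 3303 to 6480 when each day was left out. Aldh1a2 and Rara lost their calls without d8, d10 or d12. Over d0 to d12 the count of members was 1 and ranged from 0 to 2 without each day. That of all genes was 1103 and ranged from 0 to 2113. DESeq2 also called 1 member over d0 to d12, Crabp2 (adjusted p of 0.0400) and not Rarb (0.175). Over the edgeR and DESeq2 settings that tested Rarb, its adjusted p there ran from 0.00287 to 0.179. Without d8 and d10, an alternative chosen after seeing the data, the count was 0 in both spans, with fewer libraries tested. None of all 16431 genes tested over d0 to d12 and none of 15950 over d6 to d12 was called either. Over d0 to d12 the filter left 7 members in this setting, and Rarb was not among them. The counts of members at least 3-fold changed stayed within 1.5 times under TMM, DESeq2 size factors and the deposited CPM. Without a minimum CPM 1 member was changed at d0 and 1 at d2, and with a 2-fold limit 2 were changed at d0, 3 at d4, 2 at d6 and 4 at d12, as these limits admit lower levels and smaller folds. On d8 and d10 the 2-fold limit gave 6 and 4 members. The share of all genes passing either of these other limits was not counted. These counts therefore do not set the members apart from other genes. No called value changed its direction in any setting run. Every edgeR fit paired the 2 libraries of a day through the day block. No paired analysis by replicate number was possible because every library is replicate 1 of its line and day. Depth limits Aldh1a1 and the early values of Rarb and Cyp26b1, with at most 27 reads per library up to d4.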
